A study of Homo sapiens with 6 samples.

Results

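The genes of fatty acid oxidation were followed in HCT116 cells, a line of human colorectal cancer cells, after depletion of STBD1. The members were 34 listed symbols, matched by name to the Ensembl identifiers of the 58395 genes in the count tables, and they cover 4 enzymes of activation, 23 of the mitochondrial route and 7 of the peroxisomal route. The series holds 3 libraries of cells infected with a lentiviral non-target control hairpin (shControl) and 3 of cells infected with a hairpin against STBD1 (shSTBD1), labelled as replicates 1 to 3 of each group. All 6 cultures carried a hairpin and were grown in the same medium with serum. The methods give 1 hairpin sequence for shControl and 1 for shSTBD1, and the labels of these 6 libraries name no rescue. Any effect of a hairpin outside its target therefore cannot be told apart from the depletion in these libraries. The paper also sequenced RNA of depleted cells with STBD1 put back, which are not part of this comparison. The p-values measure only the spread between these samples.

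Fatty acids are burned in steps that remove acetyl units from an activated chain. Acyl-CoA synthetases attach coenzyme A, the carnitine shuttle carries long chains across the mitochondrial membranes, and in the matrix the chain is dehydrogenated, hydrated, oxidized again and cleaved, with electrons passed on through a flavoprotein to the respiratory chain. Peroxisomes run a parallel route for very long, branched and dicarboxylic chains, and they rely on their own transporters and oxidases. STBD1 is a glycogen-binding protein of the endoplasmic reticulum that has been proposed to bring glycogen to the autophagy machinery, and the comparison asks what its loss does to the transcriptome of cancer cells.

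The libraries held between 17689097 and 21668274 expected counts, the number of reads that the RSEM program assigns to genes. Levels are given as CPM, the count relative to the library total, scaled by the trimmed mean of M-values (TMM) where groups are compared, and as TPM, which also divides by length, where genes are compared. The targeted gene, STBD1, was at 16.15, 15.7 and 14.4 CPM in shControl 1 to 3 and at 11.6, 9.06 and 9.18 CPM in shSTBD1 1 to 3. The groups did not overlap, and STBD1 fell by 35.8% (log2 fold change -0.64, SE 0.098, edgeR adjusted p = 2.91e-04). An exact two-sided permutation test over the 10 divisions of the libraries gave p = 0.1, the smallest it can give. Of the 10 markers of colon epithelium listed for a check of the cell type, 7 were high enough to test and 4 were higher in shSTBD1, among them CDH1, KRT19 and KRT8, with log2 fold changes of 0.29, 0.28 and 0.22. These 4 were 57.1% of the markers tested, beside 15.8% of all tested genes with an edgeR adjusted p under 0.05. EPCAM, KRT20 and CDX2 did not pass, with log2 fold changes of 0.040, 0.66 and -0.072. The summed level of this list lay between 2859 and 2894 TPM in shControl and between 3243 and 3380 TPM in shSTBD1. Keratins made up most of this sum, with KRT8 at a mean of 1249 TPM and KRT19 at 734 TPM in shControl. VIL1, CDX1 and CDH17 of this list were at or near 0 in every library. Leukocyte markers summed to at most 0.99 TPM and endothelial markers to at most 0.69 TPM in any library, and PTPRC, the defining leukocyte gene, was at 0. Of the 6 fibroblast markers only COL1A1 was high enough to test, at 30.9 to 39.0 CPM in shControl and 36.7 to 40.3 CPM in shSTBD1. The part of the change in these epithelial markers in the results on fatty acid oxidation was not tested. In bulk RNA, fewer cells of one kind and less RNA per cell cannot be told apart.

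The members moved in both directions after STBD1 depletion. Of the 34 members, 33 were measured well enough to test and 5 passed an adjusted p of 0.05 in the quasi-likelihood test of edgeR. ABCD3, ACADVL and ECI2 rose, ACADSB and ECI1 fell, and the other 28 did not pass. The share of members called was 15.2%, beside 15.8% of all 15566 tested genes. By direction the background was 8.22% called higher and 7.54% called lower. The median log2 fold change of the tested members was -0.0004, beside 0.0023 over all tested genes, and the median absolute log2 fold change was 0.079, beside 0.11. Positive and negative values were nearly balanced, with 16 members above 0 and 17 below. The groups did not overlap in CPM for 16 members, 9 of them higher and 7 lower in shSTBD1, where 33.6% of all tested genes did not overlap.

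**Figure D1:**
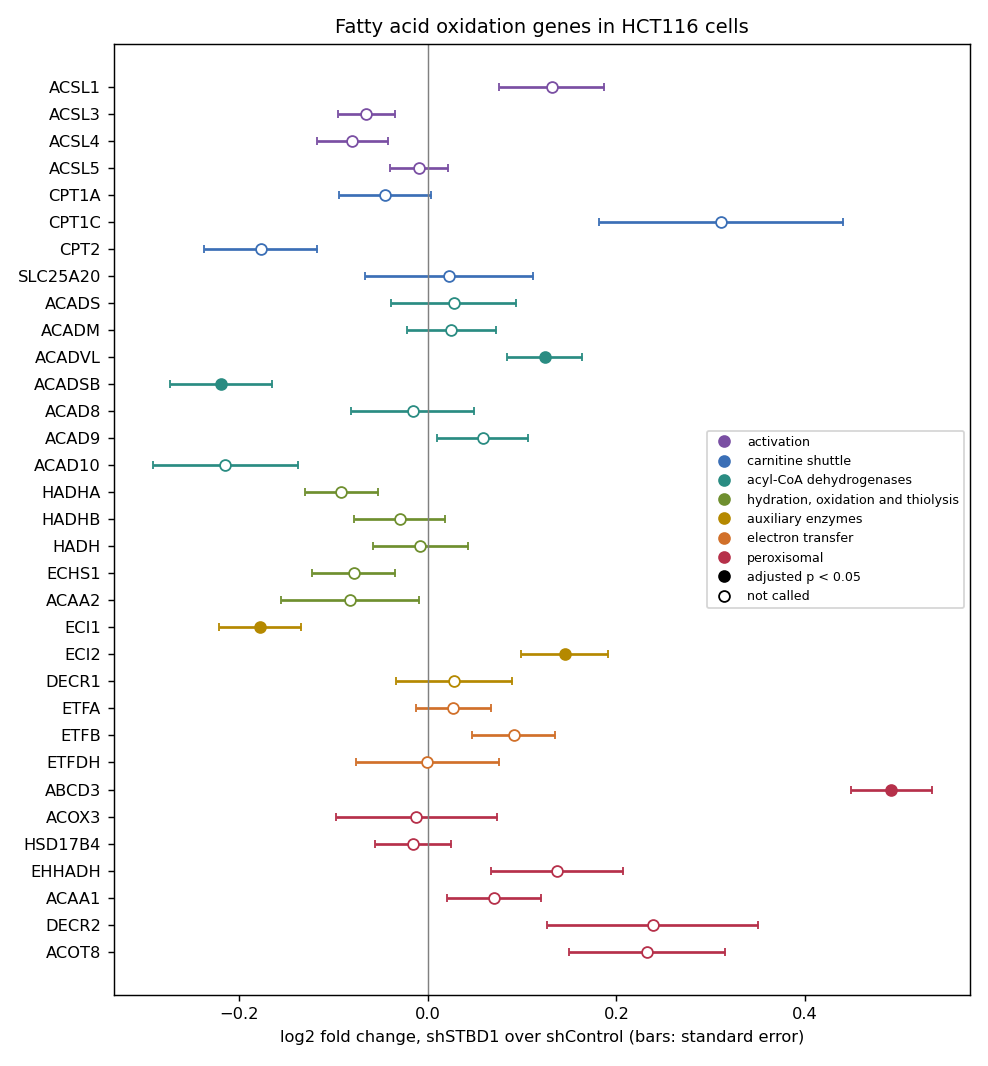
Log2 fold change of shSTBD1 over shControl for the 33 tested members, ordered and coloured by role, with bars for the standard error and filled points for an adjusted p under 0.05. ABCD3 stands at 0.49 to the right of the other members, which lie between -0.22 and 0.31, and the 5 genes of hydration, oxidation and thiolysis all lie below 0 with open points.

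ABCD3, the peroxisomal membrane transporter that imports branched and dicarboxylic acyl chains, showed the largest change of the members. It was at 64.35, 58.6 and 59.6 CPM in shControl 1 to 3 and at 85.0, 84.3 and 87.3 CPM in shSTBD1 1 to 3. The highest control library lay well below the lowest shSTBD1 library. Its level rose by 40.6% (log2 fold change 0.49, SE 0.043, edgeR adjusted p = 8.16e-07), and it ranked 57 of 15566 genes by p. ABCD3 lies at chr1:94418389-94518666 on the plus strand (GRCh38), overlaps no other annotated gene, and was called higher under all 16 alternative settings, with log2 fold changes from 0.41 to 0.53.

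The remaining peroxisomal members are the oxidase ACOX3, the multifunctional enzymes EHHADH and HSD17B4, the thiolase ACAA1, the dienoyl-CoA reductase DECR2 and the thioesterase ACOT8, and none of them passed the test. ACOT8, which releases chains from coenzyme A, was closest. Its 3 control libraries lay at 10.9, 10.7 and 10.9 CPM and its 3 shSTBD1 libraries at 13, 13.2 and 12 CPM, without overlap (log2 fold change 0.23, SE 0.083, edgeR adjusted p = 0.067). DECR2 had a similar estimate of 0.24 with a larger standard error of 0.11, and its shControl values of 8.31, 11.3 and 11.9 CPM overlapped those of shSTBD1, 11.7, 12.5 and 13.0 CPM. Without shControl 1, the lowest library, the estimate for DECR2 was 0.094. DECR2 overlaps NME4 on the same strand, which was at a mean of 39.2 CPM, and ACOT8 overlaps SNX21 on the opposite strand, at 14.1 CPM. EHHADH lay between 16.55 and 18.0 CPM in shControl and between 18.1 and 20.2 CPM in shSTBD1, and ACAA1 between 36.9 and 38.7 CPM and between 38.7 and 40.8 CPM. Neither pair of groups overlapped, but the log2 fold changes of 0.14 and 0.070 did not pass, with edgeR adjusted p-values of 0.205 and 0.371. HSD17B4 and ACOX3 had log2 fold changes of -0.015 and -0.012 and overlapping groups. With ABCD3, 4 of the 7 peroxisomal members had groups that did not overlap, all higher in shSTBD1, where 17.4% of all tested genes were higher without overlap. The median log2 fold change over all 7 peroxisomal members was 0.14.

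**Figure D2:**
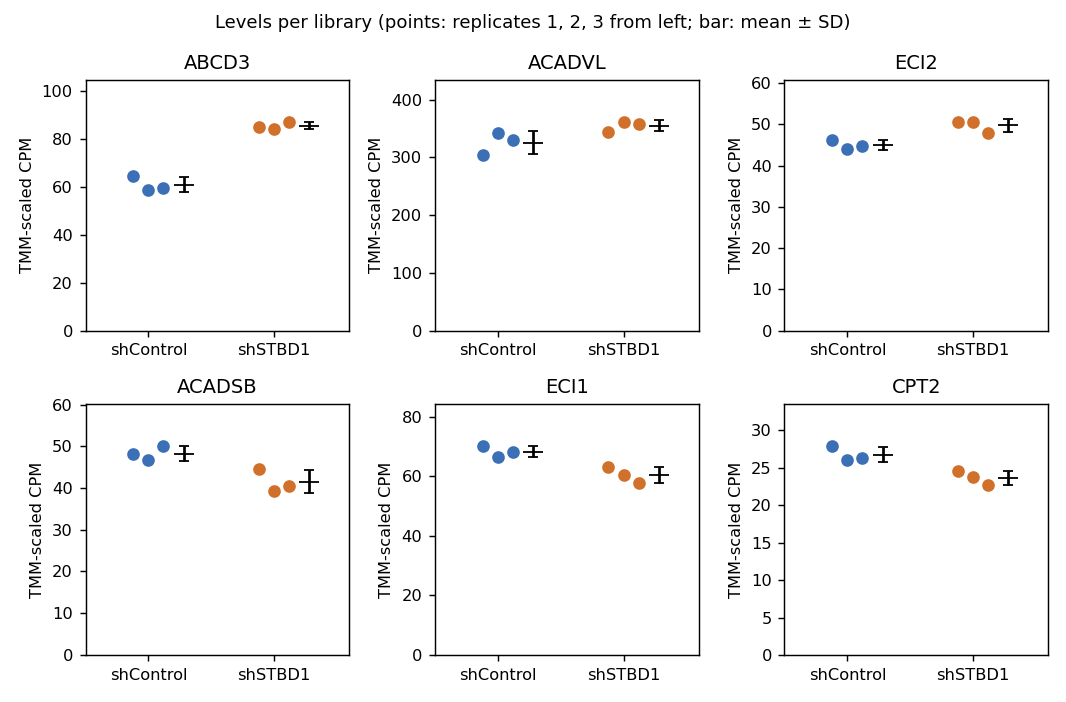
TMM-scaled CPM of the 5 members that passed the test and of CPT2, the member closest to the threshold, with a point for each library (replicates 1 to 3 from the left in each group) and a bar for the mean and SD, on axes that start at 0. The ABCD3 groups are far apart, and in the other 5 panels the groups lie close together without overlap.

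ACADVL, the very long-chain acyl-CoA dehydrogenase that opens mitochondrial oxidation of long chains, rose slightly. It was at 304, 342 and 330 CPM in shControl 1 to 3 and at 344, 362 and 358 CPM in shSTBD1 1 to 3. The lowest shSTBD1 library lay just above the highest control library. The difference was 8.98% (log2 fold change 0.12, SE 0.040, edgeR adjusted p = 0.045). The call was lost without shControl 1 (log2 fold change 0.074, edgeR adjusted p = 0.059), without shControl 3 (0.079), and without shSTBD1 1, 2 or 3 (0.072, 0.183 and 0.142). It was also lost with library size alone (edgeR adjusted p = 0.058) and with offsets from a length trend (0.1). ACADVL lies at chr17:7217125-7225266 on the plus strand and overlaps DLG4 on the opposite strand, which was at a mean of 6.42 CPM with a log2 fold change of 0.57 (edgeR adjusted p = 0.00399). Whether counting used strand is not given in the sources used here, so reads of the overlap cannot be told apart.

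ACADSB, the dehydrogenase of short and branched chains that also serves isoleucine breakdown, fell. Its level was 48.1, 46.6 and 50.1 CPM in shControl 1 to 3 and 44.6, 39.4 and 40.5 CPM in shSTBD1 1 to 3. All shSTBD1 libraries lay below all control libraries, and replicate 1 was the closest to the controls. ACADSB fell by 14.1% (log2 fold change -0.22, SE 0.054, edgeR adjusted p = 0.011). The gene lies at chr10:123008979-123058290 on the plus strand and overlaps no other annotated gene. The call was lost without shControl 3 (edgeR adjusted p = 0.0535), shSTBD1 2 (0.080) or shSTBD1 3 (0.055).

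The other acyl-CoA dehydrogenases gave no call. ACAD10, a less studied family member, had the lowest estimate of these, with 20.4, 22.1 and 23.55 CPM in shControl 1 to 3 and 18.7, 20.7 and 17.35 CPM in shSTBD1 1 to 3. The groups overlapped through shControl 1 and shSTBD1 2 (log2 fold change -0.21, SE 0.077, edgeR adjusted p = 0.069), and ACAD10 was called lower when either of these libraries was left out (edgeR adjusted p = 0.020 and 0.046). ACADS and ACADM, the short-chain and medium-chain enzymes, had log2 fold changes of 0.027 and 0.025. ACAD8, which acts in valine breakdown, stood at -0.016, and ACAD9, an assembly factor of respiratory complex I, at 0.058, all with overlapping groups. ACADL, the long-chain enzyme, had 1 expected count in shControl 3 and 0 in the other libraries and was not tested. At these depths a count of 0 allows up to 0.138 to 0.17 CPM, an interval that covers counting error only.

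The isomerases ECI1 and ECI2, which shift double bonds of unsaturated chains into the position that the oxidation cycle can use, changed in opposite directions. ECI1 was at 70.2, 66.6 and 68.05 CPM in shControl 1 to 3 and at 63.1, 60.4 and 57.6 CPM in shSTBD1 1 to 3. Its groups did not overlap, and it fell by 11.6% (log2 fold change -0.18, SE 0.044, edgeR adjusted p = 0.011). ECI2, found in mitochondria and peroxisomes, was at 46.2, 43.97 and 44.8 CPM in shControl 1 to 3 and at 50.7, 50.6 and 47.9 CPM in shSTBD1 1 to 3. It rose by 10.6% (log2 fold change 0.15, SE 0.046, edgeR adjusted p = 0.043), again without overlap in CPM. In TPM the ECI2 groups overlapped, at 48.4, 51.4 and 51.7 in shControl 1 to 3 and 55.7, 50.6 and 49.8 in shSTBD1 1 to 3. ECI1 (chr16:2239402-2252300, minus strand) overlaps ECI1-AS1 on the opposite strand, which was at a mean of 1.18 CPM. ECI2 (chr6:4115693-4135597, minus strand) overlaps only loci that were too low to test. The ECI1 call was lost without shSTBD1 2 (edgeR adjusted p = 0.052) or shSTBD1 3 (0.0755). The ECI2 call was lost without shControl 2 or 3 (edgeR adjusted p = 0.121 and 0.102), without shSTBD1 1, 2 or 3 (0.141, 0.15 and 0.051), in DESeq2 (adjusted p = 0.132), without a filter on low counts (0.0535) and with offsets from a length trend (0.131). DECR1, the mitochondrial reductase that works with them, had overlapping groups between 32.8 and 38.5 CPM and a log2 fold change of 0.028. DECR1 overlaps NBN on the opposite strand, which was at a mean of 82.8 CPM with a log2 fold change of -0.15.

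The enzymes that hydrate, oxidize and cleave the chain in the matrix gave no call. HADHA and HADHB form the trifunctional protein for long chains, HADH and ECHS1 serve shorter chains, and ACAA2 is a thiolase. All 5 log2 fold changes were below 0, from -0.092 to -0.0077, and none passed the test. HADHA was at 183, 164 and 168 CPM in shControl 1 to 3 and at 159, 164 and 161 CPM in shSTBD1 1 to 3, with the control libraries above all shSTBD1 libraries by a narrow margin (log2 fold change -0.092, SE 0.039, edgeR adjusted p = 0.121). Without shControl 1, the highest library, the HADHA value was -0.046. ECHS1 also had groups without overlap, at 55.4 to 56.6 CPM in shControl and 50.75 to 54.8 CPM in shSTBD1 (log2 fold change -0.079, edgeR adjusted p = 0.25). HADHB and HADH had values of -0.029 and -0.0077 with overlapping groups, and their sign changed under some settings. HADHA and HADHB overlap each other on opposite strands.

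Activation and the carnitine shuttle gave no call either. Of the acyl-CoA synthetases, ACSL1, which feeds oxidation in many tissues, lay between 24.5 and 25.2 CPM in shControl and between 27.0 and 27.7 CPM in shSTBD1 (log2 fold change 0.13, SE 0.055, edgeR adjusted p = 0.121). ACSL3, which acts at lipid droplets, lay between 194 and 197 CPM in shControl and at 187 CPM in all 3 shSTBD1 libraries, also without overlap but in the other direction (log2 fold change -0.065, edgeR adjusted p = 0.156). ACSL4, which prefers arachidonate, had a log2 fold change of -0.080 with groups that did not overlap but met at 104 CPM, and ACSL5, which is abundant in intestine, one of -0.0096 with overlapping groups.

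CPT1A, the liver-type enzyme that limits entry into the shuttle, was at 136, 118 and 117 CPM in shControl 1 to 3 and at 124, 118 and 118 CPM in shSTBD1 1 to 3. The groups overlapped, with shControl 1 standing above the rest (log2 fold change -0.045, SE 0.049, edgeR adjusted p = 0.587). CPT1C, the neuronal form, was low, at 4.83, 6.08 and 6.21 CPM in shControl 1 to 3 and at 7.71, 6.62 and 6.96 CPM in shSTBD1 1 to 3. The groups did not overlap, but the estimate of 0.31 had a standard error of 0.13 and did not pass (edgeR adjusted p = 0.115). CPT2, which turns acylcarnitines back into acyl-CoA in the matrix, was at 27.9, 26.0 and 26.3 CPM in shControl 1 to 3 and at 24.6, 23.7 and 22.7 CPM in shSTBD1 1 to 3. It lay just outside the threshold (log2 fold change -0.18, SE 0.060, edgeR adjusted p = 0.056) and was called in none of the 16 alternatives. CPT2 overlaps CZIB on the opposite strand, which was at a mean of 25.2 CPM. SLC25A20, the carnitine-acylcarnitine carrier of the inner membrane, had a log2 fold change of 0.023 with overlapping groups. Among the electron carriers, ETFA, ETFB and ETFDH had values of 0.027, 0.091 and -0.0004, and of these only ETFB had groups without overlap, at 64.0 to 64.3 CPM in shControl and 64.8 to 72.05 CPM in shSTBD1. ETFDH overlaps PPID and C4orf46 on the opposite strand, which were at means of 74.8 and 35.0 CPM.

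The members differed far more from each other than between groups. Per length, ACADVL was the most abundant, at 372 ± 33.8 TPM (SD, n = 3) in shControl and 418 ± 17.0 TPM in shSTBD1. ACSL5 followed at 122 ± 2.44 TPM in shControl, then ETFB at 116 ± 3.46 TPM and ETFA at 111 ± 3.23 TPM, and the last pair overlapped. ECI1, at 91.35 ± 4.14 TPM, was separate from its neighbours, and HSD17B4, ACSL3 and HADHA overlapped in turn between 73.7 and 76.3 TPM. At the low end of the tested genes were ACSL1 and ACOX3 at 8.43 and 8.22 TPM, which overlapped, and EHHADH at 5.60 ± 0.285 TPM, which did not overlap with ACOX3. Of the 33 neighbouring pairs in this order, 20 overlapped between control libraries and 13 did not, and from ACADSB at 13.4 TPM down to SLC25A20 at 10.0 TPM each gene overlapped the next.

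**Figure D3:**
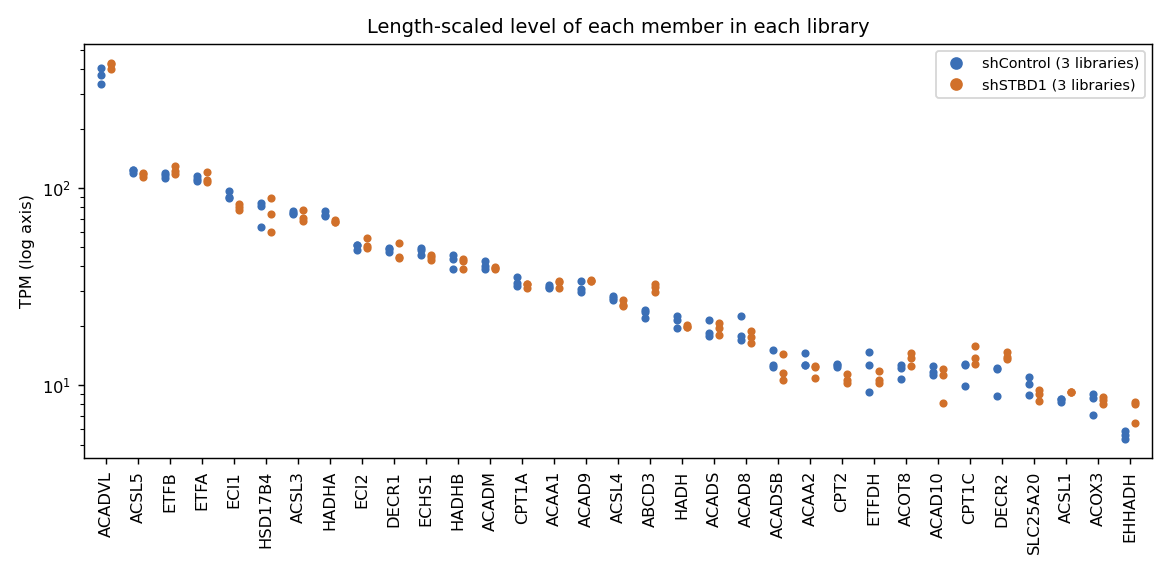
TPM of the 33 tested members in each of the 6 libraries on a log axis, ordered by the shControl mean, with shControl to the left and shSTBD1 to the right for each gene. Levels run from 372 TPM for ACADVL to 5.60 TPM for EHHADH in shControl, and ABCD3, EHHADH, DECR2 and ACSL1 have all shSTBD1 points above the shControl points.

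The summed level of all members was 1605 ± 40.0 TPM in shControl and 1633 ± 27.8 TPM in shSTBD1 (SD, n = 3), and the libraries overlapped. The sum over the 4 synthetases lay between 231 and 234 TPM in shControl and between 221 and 228 TPM in shSTBD1. The 5 genes of hydration, oxidation and thiolysis summed to 195 to 202 TPM in shControl and to 182 to 190 TPM in shSTBD1. Both sums were lower in every shSTBD1 library in TPM, and no test was made on them. In CPM the groups overlapped for the synthetases, at 596 to 607 in shControl and 580 to 597 in shSTBD1. For the 5 genes they did not overlap in CPM, at 343 to 353 in shControl and 326 to 338 in shSTBD1. TPM also moves with the effective length that RSEM assigns from the mixture of isoforms. For HSD17B4 that length was 1354, 1772 and 1396 bases in shControl 1 to 3 and 1541, 1271 and 1757 bases in shSTBD1 1 to 3. Its TPM varied between 59.5 and 88.8 over the 6 libraries, while its CPM stayed between 93.1 and 102. EHHADH had lengths of 3521, 3573 and 3570 bases in shControl 1 to 3 and 3568, 2448 and 2693 bases in shSTBD1 1 to 3, and its TPM was 5.59, 5.89 and 5.32 against 6.44, 8.27 and 8.03. No member had a posterior standard deviation of the count above 2.24% of the count, the value of ACOT8. For STBD1, the targeted gene, the largest value over the libraries was 10.5%, so the assignment of its reads was less certain.

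The 5 calls did not hold equally under other ways of handling the counts. ABCD3 kept its call in all 16 alternatives, ECI1 in 11, ACADSB in 10, ACADVL in 6 and ECI2 in 5. With offsets for effective length, and with limma on log2(TPM + 1) or log2(TPM + 0.1), ABCD3 was the only member called. In these 3 fits 3.28%, 1.88% and 1.86% of all tested genes were called. With offsets for effective length the log2 fold changes were 0.066 for ECI2, -0.11 for ACADSB, -0.17 for ECI1 and 0.19 for ACADVL. With limma on log2(TPM + 1) that of ECI2 was 0.041. In TPM the groups of ECI2, ACADSB and ACADVL overlapped, and those of ABCD3 and ECI1 did not. The direction of each of the 5 was the same in all 16 alternatives.

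**Figure D4:**
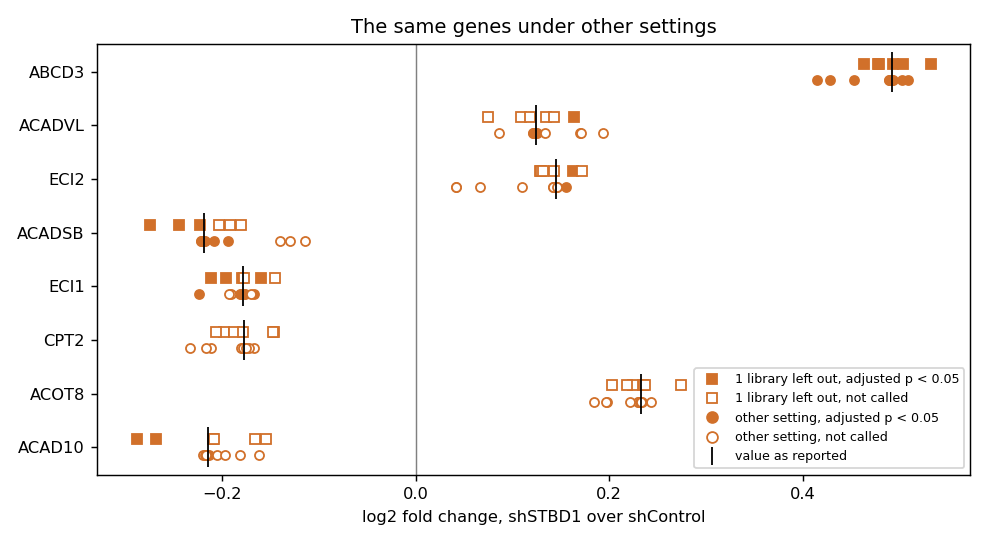
Log2 fold change of the 5 called members and of the 3 next in order of adjusted p under the 16 alternatives, with squares for fits without 1 library, circles for other settings, filled marks for an adjusted p under 0.05 and a vertical bar for the value as reported. ABCD3 lies between 0.41 and 0.53 with filled marks throughout, and the other genes keep their side of 0, with filled and open marks for ACADVL, ECI2, ACADSB, ECI1 and ACAD10 and open marks alone for CPT2 and ACOT8.

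The wider pathway was described by lists of genes outside the members. Of 31 genes listed as other oxidation enzymes, 28 were tested, 5 were higher and 2 were lower in shSTBD1. The share called was 25.0%, beside 15.8% of all tested genes (8.22% higher and 7.54% lower). No test was made on the share of this list or of those that follow. All these lists were chosen with earlier results of these data known, so their shares are description only. The highest of the called genes on this list were HSD17B8 with a log2 fold change of 0.34 (SE 0.095, edgeR adjusted p = 0.023), PHYH, the peroxisomal hydroxylase of phytanic acid, with 0.27 (SE 0.072, 0.0196), and ACAD11 with 0.21 (SE 0.051, 0.010). Whether each listed gene acts in oxidation, HSD17B8 among them, was not tested, so the share called describes the list and not the pathway. MLYCD, which breaks down the malonyl-CoA that inhibits the shuttle, fell with a log2 fold change of -0.28 (SE 0.085, edgeR adjusted p = 0.032), and NUDT19, a peroxisomal hydrolase of coenzyme A, with -0.27 (SE 0.060, 0.00539). The HSD17B8 call was lost without shControl 3, shSTBD1 2 or shSTBD1 3 (edgeR adjusted p = 0.085, 0.0695 and 0.099), that of PHYH without shControl 3, shSTBD1 1 or shSTBD1 2 (0.072, 0.068 and 0.084), and that of ACAD11 without shSTBD1 3 (0.062). That of MLYCD was lost without shControl 1 or any 1 of the shSTBD1 libraries (edgeR adjusted p = 0.099, 0.077, 0.129 and 0.058). In DESeq2 the adjusted p was 0.079 for HSD17B8, 0.078 for PHYH and 0.1 for MLYCD, and with offsets from a length trend it was 0.052 for HSD17B8 and 0.051 for MLYCD, so these calls were lost there too.

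Of 16 peroxins, which build peroxisomes and import their proteins, all were tested, and PEX19 rose while PEX5 fell. The share called was 12.5%, beside 15.8% of all tested genes. PEX19, the chaperone that inserts peroxisomal membrane proteins such as ABCD3, was at 28.7, 30.0 and 30.1 CPM in shControl 1 to 3 and at 48.8, 49.1 and 46.5 CPM in shSTBD1 1 to 3. The groups were far apart (log2 fold change 0.70, SE 0.050, edgeR adjusted p = 9.06e-08), and PEX19 was called under all 16 alternatives. PEX5, the import receptor, lay between 55.4 and 58.2 CPM in shControl and between 50.6 and 51.4 CPM in shSTBD1 (log2 fold change -0.15, SE 0.042, edgeR adjusted p = 0.023). The PEX5 call was lost without shControl 3 (edgeR adjusted p = 0.095) and without shSTBD1 1, 2 or 3 (0.069, 0.067 and 0.082), and in DESeq2 (adjusted p = 0.068).

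The PPAR receptors are transcription factors that fatty acids activate and that drive many genes of the pathway. PPARG, the receptor of adipose and colon epithelium, was at 60.6, 64.5 and 67.0 CPM in shControl 1 to 3 and at 73.7, 75.7 and 72.5 CPM in shSTBD1 1 to 3 and rose without overlap (log2 fold change 0.21, SE 0.044, edgeR adjusted p = 0.0037). PPARA, the receptor tied most closely to oxidation, was at 27.2, 23.7 and 25.0 CPM and at 19.5, 21.9 and 23.2 CPM and fell (log2 fold change -0.23, SE 0.074, edgeR adjusted p = 0.044). PPARD, the third receptor, did not pass (log2 fold change 0.093, edgeR adjusted p = 0.184). PPARGC1A, the coactivator PGC-1α, had 0 counts in every library. Of the 21 regulators 19 were tested, 1 was higher and 4 were lower, with NRIP1, a corepressor, at a log2 fold change of -0.35 and SIRT3, the mitochondrial deacetylase, at -0.31. The share of regulators called was 26.3%, beside 15.8% of all tested genes. The PPARA call was lost without shControl 1 or 3 (edgeR adjusted p = 0.121 and 0.081) and without shSTBD1 1 or 2 (0.177 and 0.106), and the SIRT3 call without shControl 3, shSTBD1 1 or shSTBD1 2 (0.072, 0.088 and 0.1). PPARA kept its call in 6 of 16 alternatives, and it was also lost in DESeq2 (adjusted p = 0.0795), with library size alone (0.058) and with offsets from a length trend (0.0665).

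Of 16 PPAR target genes outside the members, 10 were tested and 3 were higher, or 30.0% called, beside 15.8% of all tested genes (8.22% higher and 7.54% lower). The other 7 tested genes did not pass, and 3 of the 10 had a log2 fold change below 0. ANGPTL4, a secreted inhibitor of lipoprotein lipase, was at 37.55, 42.1 and 45.9 CPM in shControl 1 to 3 and at 63.65, 63.1 and 65.4 CPM in shSTBD1 1 to 3. It rose well clear of the controls (log2 fold change 0.62, SE 0.057, edgeR adjusted p = 1.83e-06). SLC25A42, the mitochondrial coenzyme A carrier, and UCP2, an uncoupling protein, both had a log2 fold change of 0.40. The UCP2 call was lost without shControl 2 (edgeR adjusted p = 0.086) or shSTBD1 2 (0.117). Of 25 genes of fatty acid uptake and storage, 19 were tested and 2 were higher, MGLL, the monoacylglycerol lipase, with 0.46 and FABP5, a fatty acid-binding protein, with 0.16. The share called on this list was 10.5%, beside the same 15.8%. None of the 5 tested genes of carnitine supply passed in edgeR, and none had an unadjusted p under 0.05.

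**Figure D5:**
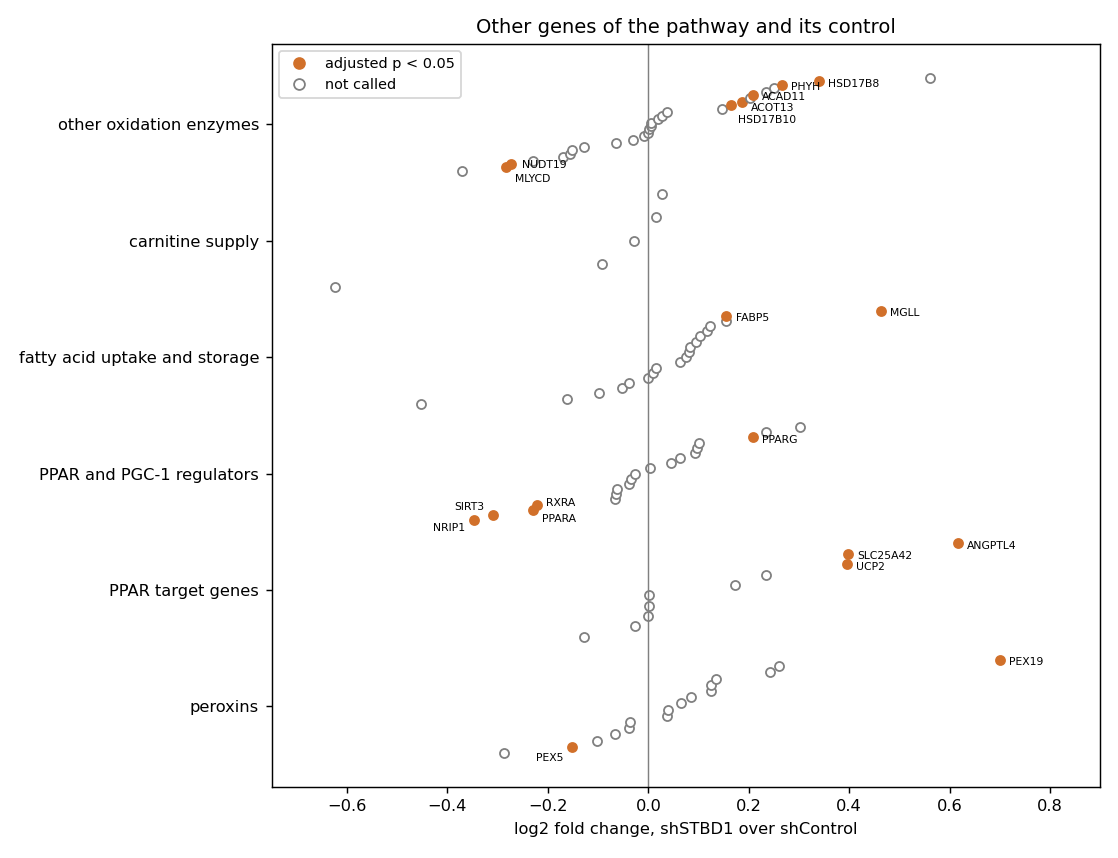
Log2 fold change of the tested genes in 6 lists outside the members, 1 row per list with genes stacked by value, filled where the adjusted p is under 0.05. PEX19 at 0.70 and ANGPTL4 at 0.62 lie farthest to the right, and the called regulators NRIP1, SIRT3 and PPARA lie to the left of 0.

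Hairpin RNAs can pair with other transcripts through a short seed, so the 3′ UTRs of the members were searched on the transcript strand for 7-base sites that match possible seeds of the hairpins, whose letters come from the sequences in the methods. The site GATTTCT, from the shSTBD1 hairpin, was in the 3′ UTR of 6 of the 33 tested members, ACSL1, ACSL4, HADHB, DECR1, ABCD3 and EHHADH, and in 18.5% of 13036 tested genes with an annotated 3′ UTR. The site GTGTCAC, from the shControl hairpin, was in ACADSB and ETFA and in 9.82% of the genes, and TGTCACG, which shares 6 bases with it, was in no member and in 3.04% of the genes. The windows below show the site in capitals in the called members that hold one, and in ETFA, the member with a pair of sites. They were read from the canonical transcripts of GENCODE release 44 on GRCh38, 5′ to 3′ on the strand of the gene.
ABCD3, exon 23, chr1:94517638-94517666, plus strand: atacagtggcaGATTTCTttagctgccac
ACADSB, exon 11, chr10:123053782-123053810, plus strand: acccctccctgGTGTCACtgctgtaaaat
ETFA, exon 12, chr15:76215649-76215677, minus strand: gaggtccaagaGTGTCACcagggctgcag
ETFA, exon 12, chr15:76215376-76215404, minus strand: ctttctgatttGTGTCACaatcagttgct

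Over all genes with a 3′ UTR, those with GTGTCAC were called higher in shSTBD1 in 18.5% of cases, beside 8.46% of those without it, and those with GATTTCT were called lower in 11.5%, beside 7.84%. Genes with TGTCACG, the other site of the shControl hairpin, were called higher in 10.9%, beside 9.41%, and lower in 10.9%, beside 8.44%. Both called members with a site lay on the other side. ABCD3, with the GATTTCT site at base 520 of a 3′ UTR of 1534 bases, was higher in shSTBD1, and ACADSB, with the GTGTCAC site at base 28 of 4525, was lower. ETFA did not pass with its sites at bases 893 and 1166 of 1206. PEX19 held 3 GTGTCAC sites in a 3′ UTR of 2744 bases and was higher in shSTBD1. Of the other called genes named from the lists, PPARA and PEX5, both lower, and SLC25A42, which was higher, held GATTTCT. Of the tested genes named from the lists that did not pass, COL1A1 held GTGTCAC and CDX2 held GATTTCT. The part of these sites in any single gene's value was not tested.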

How the data were processed

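RNA of HCT116 cells was sequenced as paired ends, 1 library per labelled replicate. Per the labels and methods, the authors used STAR 2.7.1a for alignment (build hg38, gene models of Ensembl 93) and RSEM 1.3.1 for quantification. The deposited expected counts are not normalized. The deposited TPM values are scaled by the authors for effective length to 1 total per library. The counts were rounded, filtered with filterByExpr, scaled by TMM (factors 0.979 to 1.009) and tested in edgeR 4.0.16 (R 4.3.3) by the quasi-likelihood F-test, with Benjamini-Hochberg adjustment over 15566 genes. Groups came from the labels. The alternatives were DESeq2 1.42.0, 2 other scalings, 2 filters, 2 length offsets, limma 3.58.1 on log2(TPM + 1) and log2(TPM + 0.1), a replicate block, and leaving out each library. Members and gene lists were chosen with earlier results of these data known. Of each other list, at most 3 called genes per direction with a mean of at least 1 CPM are named, by size of change, and the PPAR receptors and PPARGC1A always. 1 further gene of that rule is not reported here. The fits were tested on simulated counts with known changes. Gene lengths did not vary between the simulated libraries, so the effective-length offsets and the TPM fits were not tested with varying lengths.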

Additional observations from a re-analysis of the deposited data

How the results depend on the processing

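The number of members called was 5 as reported and fell to 1, ABCD3, with effective-length offsets (1 higher, 0 lower) and with limma on log2(TPM + 1) or log2(TPM + 0.1) (1 higher, 0 lower in each), and to 3 (1 higher) with offsets from a length trend. Over all genes the calls went from 2453 to 510 (322 higher, 188 lower), 292 (178, 114) and 290 (176, 114) in the first 3 of these. The median of the members moved to -0.023, -0.052 and -0.053 in the same order. DESeq2 called 2 members higher and 2 lower, library size alone 2 and 2, and the fit without a filter 2 and 3, with ACAD10 in place of ECI2. STBD1 did not pass in limma, with log2 fold changes of -0.54 (adjusted p = 0.065) and -0.65 (0.067). Of the named genes outside the members, ANGPTL4, PEX19 and KRT19 were called in all 3 of the effective-length and limma fits, NRIP1 and KRT8 in the first, SIRT3 in the last, and the others in none. The cause of these changes was not tested.

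Leaving out 1 library at a time gave 1 to 5 members called (1 to 2 higher, 0 to 3 lower), medians from -0.012 to 0.026, and 1409 to 2577 genes called in all (785 to 1333 higher, 624 to 1244 lower). STBD1 stayed between -0.76 and -0.57. Without shSTBD1 1, 2 or 3 the calls over all genes were 1570, 1409 and 1497, and those among members 3, 2 and 1. Without shControl 3 they were 1829 and 2.

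Signs turned only among genes that did not pass. With library size alone ACSL5, HADH and ETFDH stood at 0.0008, 0.0024 and 0.0095, and without a filter ETFDH at 0.0008. With effective-length offsets and the limma fits, in that order, SLC25A20 stood at -0.14, -0.15 and -0.16, ACADM at -0.021, -0.043 and -0.044, DECR1 at -0.034, -0.058 and -0.059, and ACOX3 at 0.049, 0.029 and 0.033. With the length trend DECR1 stood at -0.019 and ETFA at -0.016. Leaving out single libraries, values ran from -0.029 to 0.0020 for ACSL5, -0.083 to 0.026 for CPT1A, -0.038 to 0.063 for SLC25A20, -0.026 to 0.083 for ACADS, -0.0023 to 0.073 for ACADM, -0.072 to 0.036 for ACAD8, -0.079 to 0.0057 for HADHB, -0.030 to 0.015 for HADH, -0.036 to 0.075 for DECR1, -0.0042 to 0.058 for ETFA, -0.079 to 0.065 for ETFDH, -0.091 to 0.056 for ACOX3 and -0.039 to 0.020 for HSD17B4.

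The replicate number was entered as a block in 1 alternative. Samples with the same number deviated together little, with correlations across genes of 0.071, 0.068 and -0.0084, so the numbers were not taken to pair the samples. With the block the same 5 members were called, 3 higher and 2 lower, with a median of -0.0003, and 2579 genes in all. STBD1 and the other named genes kept their direction there.

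With 3 libraries per group and a common biological variation of 3.37%, members with few counts, such as CPT1C or DECR2, had standard errors above 0.1. Log2 fold changes of 0.31 for CPT1C and 0.24 for DECR2 did not pass. For such members differences of this size, and smaller ones, can go undetected.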
